A study of Mus musculus with 4 samples.

Results

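The 9 genes examined here encode the enzymes of serine synthesis and of the folate-dependent one-carbon pathway: *Phgdh*, *Psat1*, *Psph*, *Shmt1*, *Shmt2*, *Mthfd1*, *Mthfd2*, *Mthfd1l* and *Aldh1l2*. They were taken by symbol from a table of gene expression in ingWAT, the inguinal depot of subcutaneous white fat, and all 9 were found among the 19030 genes listed. The RNA came from C57BL/6 mice at an age of 3 months that were kept in the cold, at 4°C according to the labels. Both groups carry *Oct3* alleles flanked by loxP sites. Ctrl mice carry no further change that the sources name, whereas cKO mice also carry Adiponectin-Cre, a transgene active in adipocytes that removes part of *Oct3* (*Slc22a3*), the gene for a transporter that takes up norepinephrine. Cells of the depot without Cre keep the gene. There were 2 libraries of each genotype, no group at another temperature was analysed here, and no source says how many mice a library holds. The p-values therefore measure the spread between these libraries, which may be technical. From the spacing of low values the depth was put at 17400000 to 18150000 reads a library. Expression is given as FPKM, the fragments of a gene relative to transcript length and to the mapped fragments of each library, so that the levels of different genes can be set side by side. The targeted gene *Slc22a3* was listed at 16.95 and 17.68 FPKM in Ctrl and at 9.07 and 9.5 in cKO, lower in both cKO libraries and not absent (log2FC -0.83, limma, adjusted p = 0.000439). Its FPKM covers the whole transcript, not the deleted exon alone.

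Serine is made from the glycolytic intermediate 3-phosphoglycerate. Phgdh oxidizes it, Psat1 transfers an amino group to the product, and Psph removes the phosphate. Serine hydroxymethyltransferase then moves a carbon unit from serine to tetrahydrofolate and leaves glycine, with Shmt1 in the cytosol and Shmt2 in mitochondria. In mitochondria Mthfd2 oxidizes the folate-bound unit, Mthfd1l releases it as formate and Aldh1l2 oxidizes it to CO2, while the trifunctional Mthfd1 handles folate-bound units in the cytosol. These units feed the synthesis of purines and thymidylate and the methionine cycle, and mitochondrial folate oxidation yields NADPH or NADH. Thermogenic fat burns glucose and fatty acids in its mitochondria, and serine synthesis branches off glycolysis upstream of them.

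The genotypes differed in opposite directions along this pathway. The first 2 genes of serine synthesis fell in cKO, *Phgdh* to 0.579 and *Psat1* to 0.602 of the Ctrl mean FPKM, whereas *Psph*, the gene of the last step, stood at 1.06 of it and was not called. Of the genes downstream of serine, *Shmt1* rose to 1.82, *Mthfd2* to 1.47 and *Shmt2* to 1.24 of the Ctrl mean. *Mthfd1* and *Mthfd1l* were not called, and *Aldh1l2* was listed at under 1 FPKM in all 4 libraries. A gene is called here when its p from limma, adjusted by the Benjamini-Hochberg (BH) method over the 12658 genes that average 1 FPKM or more, is under 0.05. Log2 fold changes (log2FC) compare cKO with Ctrl after 1 was added to each FPKM, which understates the change of low genes. Of the 8 members that entered this test 3 were called higher and 2 lower. Among all 12658 genes the shares were 12.0% higher and 13.8% lower, 25.8% in sum. The median log2FC of the 8 members was 0.19, against -0.01 over all genes tested, but it lies between members that moved in opposite directions. The groups did not overlap in any of the 9 members, a pattern seen in 66.5% of the genes tested.

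**Figure D1:**
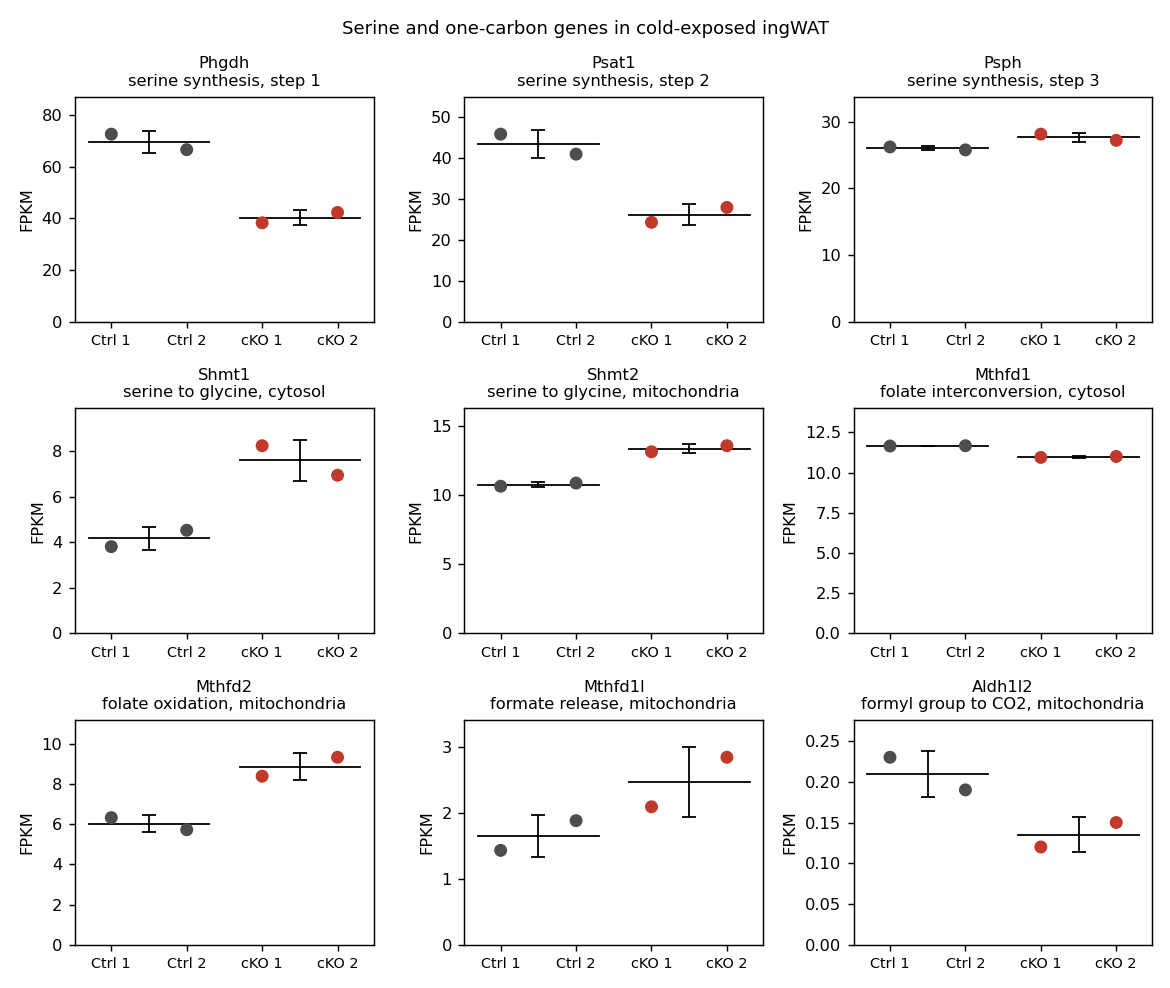
FPKM of each of the 9 genes (vertical axes, each starting at 0) in the 2 Ctrl (grey) and 2 cKO (red) libraries; points are libraries, horizontal lines group means and error bars the SD of 2 libraries. *Phgdh* and *Psat1* sit lower in both cKO libraries, *Shmt1*, *Shmt2* and *Mthfd2* higher, and *Psph* and *Mthfd1* differ by little.

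The sequences before the transcription starts of 3 members are shown because *Phgdh* and *Psat1* fell together while *Mthfd2* rose. Each run holds the 250 bases before a RefSeq start (build GRCm38.p6), 5′ to 3′ on the strand of the gene, with the pentamer CCAAT, or its reverse complement, in capitals. *Phgdh* lies on the minus strand of chromosome 3, and its window is chr3:98339970-98340219, of which the last 21 bases belong to an exon in GENCODE M21. The *Psat1* window is chr19:15925060-15925309, minus strand, and belongs to the upstream of its 2 RefSeq starts. The *Mthfd2* window is chr6:83317605-83317854, minus strand, and lies inside the annotated span of that gene, whose longest model begins further upstream.
*Phgdh*: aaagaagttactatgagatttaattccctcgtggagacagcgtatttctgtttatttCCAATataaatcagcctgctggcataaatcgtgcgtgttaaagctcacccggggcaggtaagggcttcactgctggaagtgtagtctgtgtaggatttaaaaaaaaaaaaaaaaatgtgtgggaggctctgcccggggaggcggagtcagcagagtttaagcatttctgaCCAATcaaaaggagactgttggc
*Psat1*: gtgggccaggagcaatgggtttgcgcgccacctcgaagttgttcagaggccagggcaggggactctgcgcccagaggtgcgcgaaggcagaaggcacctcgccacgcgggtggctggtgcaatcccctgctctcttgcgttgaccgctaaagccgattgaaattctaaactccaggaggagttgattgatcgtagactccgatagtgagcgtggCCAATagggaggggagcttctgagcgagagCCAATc
*Mthfd2*: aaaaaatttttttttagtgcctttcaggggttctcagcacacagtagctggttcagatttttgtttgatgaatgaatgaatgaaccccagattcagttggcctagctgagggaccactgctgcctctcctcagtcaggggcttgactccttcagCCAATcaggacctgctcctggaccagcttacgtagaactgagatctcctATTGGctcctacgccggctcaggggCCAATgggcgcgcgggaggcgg

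CCAAT, the core of the box bound by NF-Y, was searched on both strands, and it occurred 2 times in the window of *Phgdh*, 2 times in the printed window of *Psat1* and 3 times in that of *Mthfd2*. A RefSeq promoter was found for 8 members, with 9 windows in all, of which 6 hold CCAAT. The window before the other start of *Psat1*, chr19:15924623-15924872, holds 0. Besides the printed windows the 6 are those of *Psph*, *Shmt1* and *Mthfd1*, so that members called lower, called higher and not called all hold it. Of the *Psph* window, however, 196 of the 250 bases belong to exons in GENCODE M21. The *Mthfd1* window lies inside the annotated span of that gene, and that of *Mthfd1l*, which holds no CCAAT, reaches into its own. For both genes the bases just after the RefSeq start were found in no GENCODE M21 transcript of the gene. Of all 32851 promoter windows of this length 33.8% hold CCAAT. Other motifs searched on both strands were TGATGNAA, a form of the C/EBP-ATF element that Atf4 binds, TGACGTCA, the full cAMP response element, and the E-box CACGTG. These occurred in 0 of the 9 windows of the members and in 3.45%, 1.55% and 6.02% of all windows. A window of 250 bases says nothing of sites elsewhere in a gene. *Aldh1l2* has no entry in that table.

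*Phgdh* (Entrez gene 236539, chromosome 3, 98313171 to 98339969, GRCm38) encodes phosphoglycerate dehydrogenase, the enzyme that commits 3-phosphoglycerate to serine. Its FPKM was 72.58 and 66.57 in the Ctrl libraries and 38.27 and 42.27 in the cKO libraries. Both cKO libraries were far below both Ctrl libraries, and the gap between the groups was larger than that within either. The means were 69.6 ± 4.25 and 40.3 ± 2.83 (SD, n = 2 per genotype), or a log2FC of -0.77 (SE 0.0725, limma, adjusted p = 0.000769). Only 2.43% of the genes tested had a log2FC as low or lower. *Phgdh* was the member with the highest FPKM in every library and stood above 88.9% of the genes tested by its mean level.

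*Psat1* (Entrez gene 107272, chromosome 19, 15905123 to 15925059) encodes phosphoserine aminotransferase. Its FPKM was 45.89 and 41.0 in the Ctrl and 24.32 and 27.96 in the cKO libraries, again with all cKO values below all Ctrl values. The means were 43.4 ± 3.46 and 26.1 ± 2.57 (SD, n = 2 per genotype), with a log2FC of -0.71 (SE 0.086, limma, adjusted p = 0.00169). The calls of *Phgdh* and *Psat1* were kept whichever library was left out, with log2FCs from -0.84 to -0.70 for *Phgdh* and from -0.81 to -0.62 for *Psat1*.

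*Psph* (Entrez gene 100678, chromosome 5, 129765558 to 129787443) encodes phosphoserine phosphatase, the last step of the same pathway. It had an FPKM of 26.2 and 25.76 in Ctrl and of 28.12 and 27.19 in cKO. Its log2FC was 0.09 with an unadjusted 95% interval from -0.05 to 0.22 (limma, adjusted p = 0.31), so that the interval leaves out a fall like that of *Phgdh* or *Psat1*. Its exons overlap those of *Cct6a*, on the opposite strand, by up to 452 bases. *Cct6a* had 61.8 ± 0.113 FPKM in Ctrl libraries and 60.1 ± 2.35 in those of cKO (SD, n = 2 per genotype), and no source says that reads were counted by strand. Of the 3 genes of serine synthesis, the first 2 were thus called and the last was not. Within a library *Phgdh* FPKM was 2.77 and 2.58 times that of *Psph* in Ctrl and 1.36 and 1.55 times in cKO. *Psat1* FPKM was 1.75 and 1.59 times that of *Psph* in Ctrl and 0.865 and 1.03 times in cKO, so that the order *Psat1* above *Psph* in Ctrl was no longer seen in both cKO libraries. These ratios, chosen after the values were seen, do not depend on how libraries are scaled.

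**Figure D2:**
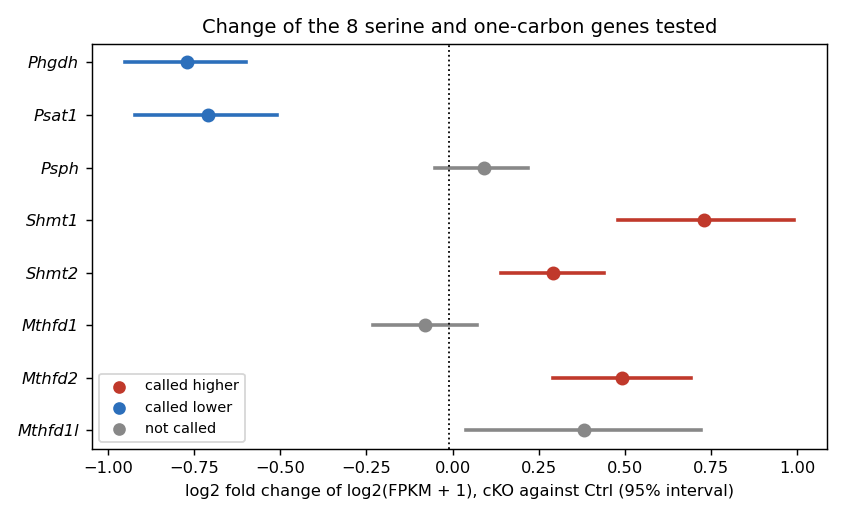
Log2FC, cKO relative to Ctrl with 1 added to FPKM (horizontal axis), for the 8 members tested; points are limma estimates, lines their unadjusted 95% intervals, colours the call, and the dotted line marks the median of all genes tested at -0.01. *Phgdh* and *Psat1* lie near -0.7, *Shmt1* at the same distance on the other side, and the intervals of *Psph* and *Mthfd1* cross the dotted line.

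Among the genes that use serine, *Shmt1* (Entrez gene 20425, chromosome 11, 60788897 to 60811265), for the cytosolic serine hydroxymethyltransferase, had the largest rise of the members. Its FPKM was 3.81 and 4.53 in Ctrl and 8.25 and 6.95 in cKO, with no overlap between the groups. The means were 4.17 ± 0.509 and 7.6 ± 0.919 (SD, n = 2 per genotype), or a log2FC of 0.73 (SE 0.109, limma, adjusted p = 0.00363). Without Ctrl replicate 1 the adjusted p was 0.0584, with a log2FC of 0.63. An exon of *Shmt1* overlaps one of *Smcr8*, on the opposite strand, by up to 184 bases, and *Smcr8* was listed at 6.41 and 6.68 in Ctrl and 7.54 and 7.19 in cKO.

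*Shmt2* (Entrez gene 108037, chromosome 10, 127517123 to 127522444), for the mitochondrial form of the same enzyme, had 10.66 and 10.89 FPKM in Ctrl and 13.16 and 13.6 in cKO. The rise was smaller than that of *Shmt1* but the libraries of a genotype lay closer together, at 10.8 ± 0.163 and 13.4 ± 0.311 (SD, n = 2 per genotype). The log2FC was 0.29 (SE 0.0644, limma, adjusted p = 0.0171). Exons of *Shmt2* and of *Ndufa4l2*, on the opposite strand, share up to 32 bases, and *Ndufa4l2* was listed at 13.37 and 12.19 in Ctrl and 9.6 and 8.25 in cKO. The direction of *Shmt2* stayed the same when any library was left out, at 0.27 to 0.31, but the adjusted p was then 0.132 without Ctrl replicate 1, 0.0895 without Ctrl replicate 2, 0.0502 without cKO replicate 1 and 0.0673 without cKO replicate 2.

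Because both forms catalyse the same reaction in different compartments, their ratio was taken within each library. *Shmt2* FPKM was 2.8 and 2.4 times that of *Shmt1* in Ctrl and 1.6 and 1.96 times in cKO. All cKO ratios lay below all Ctrl ratios, a difference of -0.55 on the log2 scale (exact two-sided permutation test, p = 0.33, the smallest value that 2 libraries against 2 can give). The mitochondrial transcript stayed the more abundant of the pair in all 4 libraries.

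In mitochondria *Mthfd2* (Entrez gene 17768, chromosome 6, 83305704 to 83326011), the folate dehydrogenase and cyclohydrolase best known from embryonic and proliferating cells, rose as well. It had 6.32 and 5.72 FPKM in Ctrl and 8.38 and 9.32 in cKO, and the groups did not overlap. The means were 6.02 ± 0.424 and 8.85 ± 0.665 (SD, n = 2 per genotype), or a log2FC of 0.49 (SE 0.0857, limma, adjusted p = 0.00695). The adjusted p rose to 0.0543 without Ctrl replicate 1 and to 0.0717 without Ctrl replicate 2, with log2FCs of 0.55 and 0.43. Of 7 proliferation markers 2, *Mcm2* and *Mcm5*, were called higher and 0 lower, beside 12.0% and 13.8% of all genes tested. At an unadjusted p under 0.05 in limma 5 of the 7 were higher and 0 lower. The other 5 were not called: *Mki67* (log2FC 0.11, limma, adjusted p = 0.51), *Top2a* (log2FC 0.12, limma, adjusted p = 0.401), *Ccnb1* (log2FC 0.32, limma, adjusted p = 0.0978), *Cdk1* (log2FC 0.34, limma, adjusted p = 0.0907) and *Rrm2* (log2FC 0.38, limma, adjusted p = 0.0572). The summed FPKM of the 7 was 14.8 and 15.9 in Ctrl and 21.0 and 21.9 in cKO. The part of dividing cells in the rise of *Mthfd2* was not tested.

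*Mthfd1l* (Entrez gene 270685, chromosome 10, 3972892 to 4167081), the mitochondrial formyltetrahydrofolate synthetase that releases formate, was low. It had 1.43 and 1.88 FPKM in Ctrl and 2.09 and 2.84 in cKO. The cKO values were above the Ctrl values, but the libraries of each genotype also lay far apart. The log2FC was 0.38 with an unadjusted 95% interval from 0.04 to 0.72, and it did not pass (limma, adjusted p = 0.0999). At the estimated depth its FPKM stood for about 91 to 170 reads a library, against 1200 to 2400 reads for *Phgdh*.

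*Mthfd1* (Entrez gene 108156, chromosome 12, 76254406 to 76319820), the cytosolic enzyme with 3 activities, was not called. It had 11.65 and 11.67 FPKM in Ctrl and 10.94 and 11.0 in cKO. The cKO libraries were lower, by little, and the log2FC of -0.08 had an unadjusted 95% interval from -0.23 to 0.07 (limma, adjusted p = 0.393). Against this gene *Mthfd2* FPKM stood at 0.542 and 0.49 in Ctrl and at 0.766 and 0.847 in cKO, a log2 difference of 0.64. The ratio of *Mthfd1l* to *Mthfd1* was 0.123 and 0.161 in Ctrl and 0.191 and 0.258 in cKO, a log2 difference of 0.66. Both ratios were higher in both cKO libraries, each with the smallest p that an exact two-sided permutation test of 4 libraries allows, p = 0.33. The pair of ratios shares the denominator *Mthfd1*, and their direction was opposite to that of *Shmt2* over *Shmt1*.

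**Figure D3:**
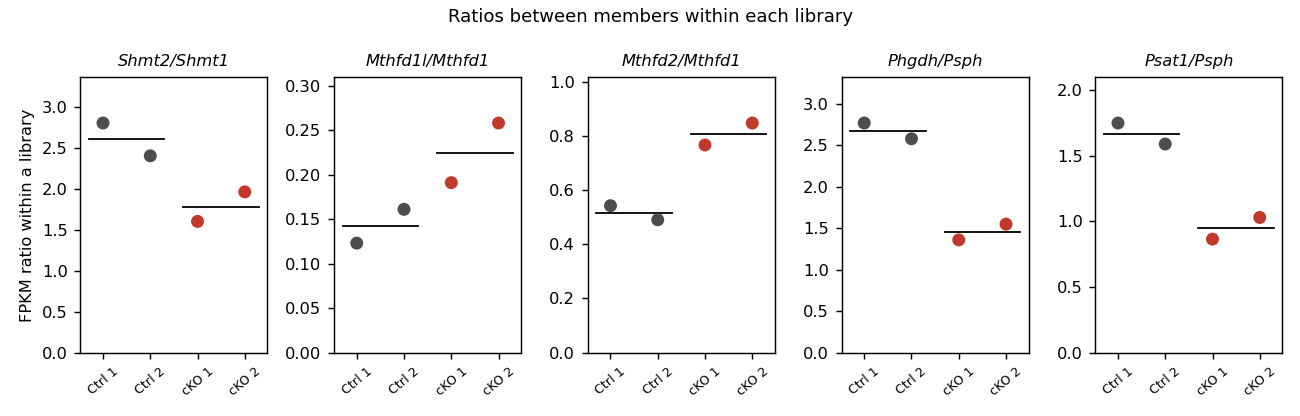
FPKM of one gene divided by that of another in the same library (vertical axes, each starting at 0) for the mitochondrial over the cytosolic genes and for *Phgdh* and *Psat1* over *Psph*; points are libraries and lines group means. *Shmt2*/*Shmt1* is lower in both cKO libraries, *Mthfd1l*/*Mthfd1* and *Mthfd2*/*Mthfd1* are higher, and both ratios to *Psph* are lower.

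*Aldh1l2* (Entrez gene 216188, chromosome 10, 83487447 to 83534146), the mitochondrial formyltetrahydrofolate dehydrogenase, had 0.23 and 0.19 FPKM in Ctrl and 0.12 and 0.15 in cKO. It did not reach the minimum level and was not tested. These values stand for about 13 to 25 reads a library, and its exons overlap those of *D10Wsu102e*, on the opposite strand, by up to 1056 bases. That gene had 7.44 ± 0.332 FPKM in Ctrl libraries and 7.45 ± 0.177 in those of cKO (SD, n = 2 per genotype), so that the origin of so few reads is uncertain. Its cytosolic relative *Aldh1l1*, which was not a member, was far more abundant and fell from 94.9 ± 2.42 to 65.6 ± 1.24 FPKM (SD, n = 2 per genotype), or a log2FC of -0.53.

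Ordered by mean FPKM in Ctrl, the members ran from *Phgdh* over *Psat1*, *Psph*, *Mthfd1*, *Shmt2*, *Mthfd2*, *Shmt1* and *Mthfd1l* to *Aldh1l2*, and no neighbouring pair overlapped in its 2 libraries. In cKO *Phgdh* came first again, *Psph* and *Psat1* overlapped, and *Shmt2* stood above *Mthfd1* in both libraries. *Mthfd2* stood above *Shmt1* in both genotypes, in cKO replicate 1 by 8.38 against 8.25 FPKM.

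The wider pathway was described with lists of 58 genes for enzymes and transporters around serine, folate and methionine, of which 46 entered the test. Of these, 4 were called higher and 11 lower, and the median of their log2FC was -0.06, to be read against 12.0% higher, 13.8% lower and a median of -0.01 among all genes tested. In the serine and glycine list 2 of 7 genes were called higher and 1 lower. *Gldc*, the decarboxylase of the glycine cleavage system, fell from 3.41 ± 0.191 to 1.88 ± 0.255 FPKM (SD, n = 2 per genotype), whereas *Dld*, the dehydrogenase that this system shares with the pyruvate dehydrogenase complex, rose from 169 ± 16.7 to 236 ± 12.5 (SD, n = 2 per genotype). *Sdsl*, a relative of serine dehydratase, rose from 8.59 ± 0.587 to 11.8 ± 1.38 (SD, n = 2 per genotype). *Amt* and *Gcsh*, the other subunits of glycine cleavage, had log2FCs of 0.14 and -0.02 and were not called. The adjusted p in limma of *Gldc* reached up to 0.0674 without Ctrl replicate 1 or Ctrl replicate 2, that of *Dld* 0.0709 without Ctrl replicate 1, and that of *Sdsl* 0.133 without Ctrl replicate 1, Ctrl replicate 2 or cKO replicate 1, so that these calls were lost there. *Sds*, *Tdh*, *Agxt* and *Agxt2* did not reach the minimum level.

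In the list of folate enzymes 2 of 8 genes were called lower and 0 higher, beside 13.8% and 12.0% of all genes tested. At an unadjusted p under 0.05 in limma 0 were higher as well. *Aldh1l1* was one of them, and *Ggh*, the lysosomal hydrolase that trims polyglutamate from folate, fell from 25.4 ± 1.52 to 17.8 ± 0.099 FPKM (SD, n = 2 per genotype), or a log2FC of -0.49. *Mthfd2l*, the paralog of *Mthfd2* in adult tissues, had 3.43 and 3.73 FPKM in Ctrl and 2.66 and 3.07 in cKO, and was not called (log2FC -0.25, limma, adjusted p = 0.117). *Mthfd2* FPKM was 1.84 and 1.53 times that of *Mthfd2l* in Ctrl and 3.15 and 3.04 times in cKO, a ratio chosen after the values were seen. *Fpgs* was not called, and *Ftcd* was under the minimum level.

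Of the 9 carriers and receptors for folate and serine that could be tested, 4 were called lower and 0 higher. Among all genes tested the shares were 13.8% and 12.0%. At an unadjusted p under 0.05 in limma 0 of the 9 were higher as well. *Slc1a5*, a carrier of neutral amino acids that include serine and glutamine, fell from 529 ± 28.2 to 329 ± 21.1 FPKM (SD, n = 2 per genotype), or a log2FC of -0.68 (limma, adjusted p = 0.00131). *Folr2*, a folate receptor known from tissue macrophages, fell from 70.5 ± 9.0 to 42.1 ± 1.07 FPKM (SD, n = 2 per genotype). The summed FPKM of 4 macrophage markers, led by *Cd68* and *Csf1r*, was 144 and 125 in Ctrl and 144 and 133 in cKO. This sum covers opposite changes, with 1 called higher and 2 lower. *Cd68* rose (log2FC 0.73), whereas *Csf1r* (log2FC -0.27) and *Mrc1* (log2FC -0.72), named outside the rule, fell. *Adgre1* was not called. The part of macrophages in the fall of *Folr2* was not tested. *Sfxn1*, which carries serine into mitochondria, is named outside the rule for its role. It fell from 90.6 ± 3.2 to 76.4 ± 1.94 FPKM (SD, n = 2 per genotype), or a log2FC of -0.24 that lost its call without any 1 library, with adjusted p from 0.0512 to 0.154. *Sfxn2* fell from 7.22 ± 0.311 to 5.39 ± 0.523 FPKM (SD, n = 2 per genotype), and its adjusted p reached 0.183 where Ctrl replicate 1, Ctrl replicate 2 or cKO replicate 1 was left out. The mitochondrial folate carrier *Slc25a32*, with a log2FC of 0.05, and the plasma membrane carrier *Slc19a1*, with -0.07, were not called.

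In the methionine cycle and its methyltransferases 2 of 10 genes were called higher and 4 lower, beside 12.0% and 13.8% of all genes tested. *Gamt*, which methylates guanidinoacetate to creatine, fell from 18.9 ± 0.601 to 9.79 ± 0.665 FPKM (SD, n = 2 per genotype), or a log2FC of -0.89 (limma, adjusted p = 0.000475). *Nnmt*, which methylates nicotinamide, fell from 93.7 ± 2.93 to 55.1 ± 6.07, and *Pemt*, which methylates phosphatidylethanolamine, from 9.25 ± 0.658 to 7.49 ± 0.226 (SD, n = 2 per genotype). *Ahcy*, which hydrolyses S-adenosylhomocysteine, rose from 7.64 ± 0.304 to 9.88 ± 0.262 and its relative *Ahcyl1* from 66.1 ± 6.05 to 101 ± 7.96 (SD, n = 2 per genotype). Another relative, *Ahcyl2*, named outside the rule, fell from 30.3 ± 1.94 to 25.5 ± 1.1 (SD, n = 2 per genotype), or a log2FC of -0.24. Its call was lost whichever library was left out. *Mat2a*, the gene of S-adenosylmethionine synthesis, had a log2FC of -0.04, and *Mtr*, for methionine synthase, one of -0.17, and neither was called. The call of *Pemt* was lost whichever library was left out, with adjusted p from 0.0916 to 0.245, and that of *Ahcy* without either Ctrl library or cKO replicate 2, with adjusted p up to 0.111.

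The genes of purine and thymidylate synthesis, which the carbon units feed, did not pass. In the purine and thymidylate list 0 of 7 genes were called by limma, and 0 had an unadjusted p under 0.05, with log2FCs from 0.02 for *Tyms* to 0.21 for *Ppat*. Both genes of transsulfuration, *Cbs* and *Cth*, were not called either (log2FCs of -0.21 and -0.24, 0 with an unadjusted p under 0.05). Of the 3 choline and betaine genes tested 0 were called and 1, *Sardh*, had an unadjusted p under 0.05. Among all genes tested 25.8% were called in either direction.

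**Figure D4:**
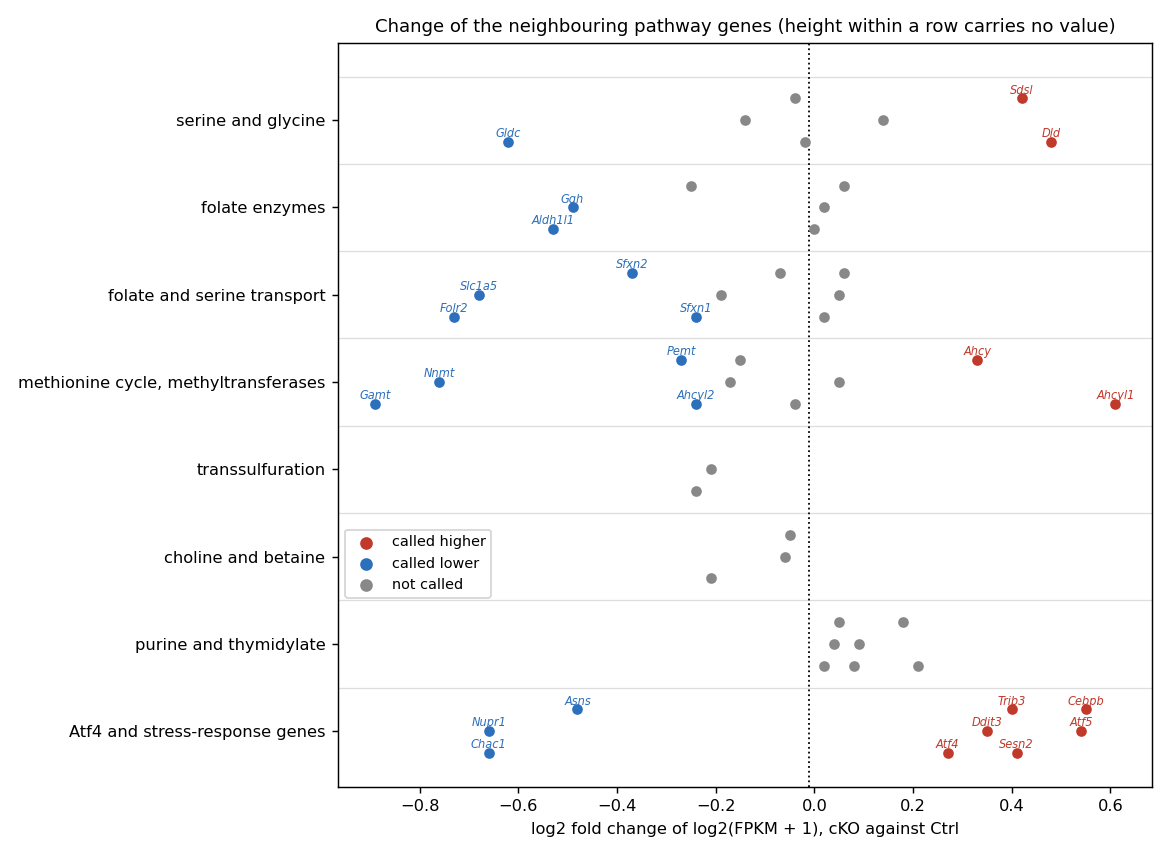
Log2FC, cKO relative to Ctrl with 1 added to FPKM (horizontal axis), for 53 genes of the neighbouring pathway lists, 1 row per list; colours give the call, called genes are named, and the dotted line marks the median of all genes tested at -0.01. The purine and thymidylate genes cluster near the line, 4 transport genes are called lower, and the Atf4 list falls into higher and lower genes with none between.

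*Phgdh*, *Psat1*, *Shmt2* and *Mthfd2* are among the known targets of Atf4, the transcription factor of the integrated stress response. A list of *Atf4* and 9 other genes of that response was therefore described beside these members. All 9 that could be tested were called, 6 higher and 3 lower. *Cebpb* rose from 57.5 ± 7.58 to 84.1 ± 0.537, *Atf5* from 151 ± 2.09 to 220 ± 27.4 and *Sesn2* from 5.87 ± 0.177 to 8.12 ± 0.594 FPKM (SD, n = 2 per genotype). *Atf4* itself, named outside the rule, rose from 86.1 ± 3.81 to 104 ± 2.41 FPKM (SD, n = 2 per genotype), or a log2FC of 0.27. *Asns*, for asparagine synthetase, fell from 52.9 ± 1.22 to 37.7 ± 2.09, *Nupr1* from 94.9 ± 3.16 to 59.8 ± 0.233 and *Chac1* from 2.54 ± 0.559 to 1.25 ± 0.53 FPKM (SD, n = 2 per genotype). The members named here as Atf4 targets stood on both sides too. *Phgdh* and *Psat1* fell with *Asns*, and *Mthfd2* and *Shmt2* rose with *Atf4*. Whether the other members are targets as well was not examined. Of these, *Psph* and *Mthfd1l* were not called and *Aldh1l2* was not tested. Leaving out either Ctrl library ended the calls of *Atf4*, *Atf5*, *Sesn2* and *Chac1*, with adjusted p up to 0.129, 0.0664, 0.0921 and 0.254; *Atf4* and *Sesn2* also lost theirs without cKO replicate 1 and *Chac1* without cKO replicate 2. Over all 8 lists 10 of 55 genes tested were called higher and 14 lower, beside 12.0% and 13.8% of all genes. Without Ctrl replicate 1 these counts were 2 and 8, without Ctrl replicate 2 they were 4 and 8, and without cKO replicate 1 they were 5 and 10, and without cKO replicate 2 they were 8 and 10. The share of all genes called, in either direction, was 6.95%, 12.1%, 17.1% and 19.2% in these fits. Of the 24 genes called, 10 kept their call whichever library was left out: *Aldh1l1*, *Ggh*, *Folr2*, *Slc1a5*, *Ahcyl1*, *Nnmt*, *Gamt*, *Asns*, *Nupr1* and *Cebpb*. Of these 10, *Cebpb* lost its call with no filter on low values. Outside them, *Pemt* and *Chac1* lost theirs under both other scalings, with no filter and in eBayes without a trend.

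Markers of several cell types also differed between the genotypes, and in bulk RNA fewer cells of a type cannot be told apart from less RNA per cell. The counts called below stand beside 12.0% higher and 13.8% lower among all genes tested. Adipocyte markers were high in all 4 libraries. The summed FPKM of 6 general or white adipocyte markers, led by *Fabp4* and *Cfd*, was 30100 and 28700 in Ctrl and 22300 and 22500 in cKO. Of these, 4 of 6 were called lower. *Fabp4*, the largest part of the sum at 16100 ± 370 and 13500 ± 113 (SD, n = 2 per genotype), was not called. The sum of 6 brown adipocyte markers, led by *Ucp1* and *Cidea*, was 891 and 1140 against 3460 and 2950, with 6 of 6 called higher. Skeletal muscle markers, led by *Acta1* and *Tnnt3*, summed to 2070 and 1380 in Ctrl and to 8.21 and 6.36 in cKO, with 7 of 7 lower, and took at most 0.423% of the FPKM of a library. Fibroblast progenitor markers, led by *Col1a1* and *Pdgfra*, summed to 168 and 141 against 128 and 122, with 2 of 3 lower. B cell markers, led by *Cd79a* and *Cd79b*, summed to 190 and 215 against 305 and 345, with 4 of 4 higher, and T cell markers, led by *Cd3g* and *Cd3d*, to 49.5 and 53.6 against 70.6 and 93.7, with 3 of 4 higher. Neutrophil markers, led by *S100a8* and *S100a9*, summed to 9.16 and 9.2 against 23.3 and 22.1, with 3 of 3 tested higher, and *Ly6g*, which defines these cells, was at 0 in 2 libraries and at 0.06 in the others. Endothelial markers, led by *Pecam1* and *Cdh5*, summed to 138 and 137 against 118 and 123, with 2 of 3 lower, and epithelial markers (*Epcam* and *Krt18* leading) and keratinocyte markers (*Krt10* and *Krt5*) were at most 0.65 and 2.43 in sum. The part of these cell types in the changes of *Phgdh*, *Psat1*, *Shmt1*, *Shmt2* and *Mthfd2* was not tested.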

How the data were processed

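RNA sequencing was performed by the authors on ingWAT of cold-exposed Ctrl and cKO mice, 2 libraries each, with polyadenylated RNA and single-end reads of 50 bases. The deposited values are FPKM per gene and library, computed by the authors. The submitters' processing notes name HISAT2 2.0.4, RSEM 1.2.12 and the genome build mm10. Library columns were matched to the samples by title, and 0 per-sample columns were unused.

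The 12658 genes that averaged 1 FPKM or more were fitted in limma 3.58.1 (R 4.3.3) as log2(FPKM + 1), using eBayes with a mean-variance trend, and p-values were adjusted by the Benjamini-Hochberg method across them. The log scale with a pseudocount of 1 understates changes of low genes. The procedure was tested on simulated data. As no read counts were used, depth was inferred from the spacing of low FPKM values in 299 short noncoding RNAs, at 17400000 to 18150000 reads a library. Between 82.7% and 87.1% of the values used, at up to 6 reads, were within 0.1 of a whole read. Reads per member are approximate, and tests on counts were not run. Python 3.11.15, pandas 2.3.3, numpy 2.4.6 and matplotlib 3.10.9 were used for the other steps.

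The members, the pathway lists and the marker lists were chosen with earlier results of these data known, and the promoter motifs after the members' values were seen. Named are all members, up to 3 genes called higher and 3 called lower in each pathway list, and the leading 2 genes of marker lists. Genes not called that are named for their role, and those marked, fall outside this rule. A few genes and 1 marker list are not reported here. Gene positions and promoters are from RefSeq (GRCm38.p6, the assembly of mm10), and exon overlaps from GENCODE M21. Each alternative changed 1 choice: leaving out a library, blocking on the replicate number, fitting eBayes with no trend, scaling by quantiles or by median of ratios, testing all genes or those averaging 5 FPKM or more, and adding 0.1 in place of 1.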

Additional observations from a re-analysis of the deposited data

How the results depend on the processing

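*Phgdh* and *Psat1* were called lower under every alternative tried. The direction of the 8 members tested was the same in every alternative that tested them (*Mthfd1l* was not tested at a mean FPKM of at least 5), and 78 of 87 member values also kept their side of the threshold. With no filter on low values 1762 genes were called in place of 3269, *Mthfd2* had an adjusted p of 0.0515 in limma, and the pathway counts fell from 10 to 1 higher and from 14 to 9 lower. The median of the members was 0.09 there, where *Aldh1l2* entered, and with a mean FPKM of at least 5, where *Mthfd1l* dropped out. The log2FCs of the members in common were unchanged in both. Leaving out 1 library gave 877 to 2429 genes called, 0 to 2 members higher and 2 lower in every case, and 2 to 8 pathway genes higher and 8 to 10 lower; without Ctrl replicate 1 the values were 877 genes and 0 members higher, without Ctrl replicate 2 they were 1531 and 1, and without cKO replicate 1 they were 2165 genes. With the replicate number as a block 3383 genes were called and *Mthfd1l* passed (adjusted p = 0.0412 in limma). The numbers are not known to pair mice, and same-numbered libraries deviated from their group means with a correlation of 0.0148 across 12658 genes. The log2 differences of the paralog ratios ranged from -0.70 to -0.41 for *Shmt2*/*Shmt1*, from 0.44 to 0.88 for *Mthfd1l*/*Mthfd1* and from 0.57 to 0.72 for *Mthfd2*/*Mthfd1* when 1 library was left out. About 13 to 25 reads limit *Aldh1l2*, and 2 libraries a group limit every test.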
